A study of Mus musculus with 12 samples.

Results

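The Zfp genes of the mouse are a large set of genes that encode zinc finger proteins and carry the symbol Zfp with a number. Members were taken by symbol: every gene whose annotated symbol on the array is Zfp, a number and at most 1 further letter, and whose detection p was under 0.05 on at least 3 of the 12 arrays. Of 328 such genes on the array, 219 met this rule, and 175 of them were detected on all 12 arrays. They are 219 of the 10258 genes tested. Of the other 109, 97 were detected on no array. The rule uses no difference between groups.

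Mouse podocytes, epithelial cells of the kidney's filtration barrier, were kept in culture for 48 h in 4 conditions, with 3 Illumina expression arrays each. The groups were DZNep (48 h, no high glucose), high glucose plus DZNep (48 h of both), high glucose (48 h, no DZNep) and control (neither). DZNep is 3-deazaneplanocin A, which the series title calls an EZH2 inhibitor (EZH2 is a histone methyltransferase), and is known to block the hydrolysis of S-adenosylhomocysteine, a by-product that inhibits many methyltransferases. The labels call the source a cell line and give neither its name nor the doses, and whether the replicates came from separate cultures is not stated. The p-values therefore cover only the spread among these arrays, which may be technical.

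Most zinc finger proteins of this kind carry rows of C2H2 fingers that read DNA. Many also carry a KRAB domain, which recruits the co-repressor Trim28 and with it the histone H3 lysine 9 methyltransferase Setdb1 to the bound site. Such genes arose by repeated duplication and lie in clusters, and many of their proteins are known to silence transposable elements. A smaller number of Zfp symbols belong to proteins that act on RNA, ribosomes or the spindle.

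All values below are log2 signals after background correction and quantile normalization, each gene standing at 1 probe, and a change is the difference between 2 group means on that scale, with its standard error (SE). A change passed at a Benjamini-Hochberg adjusted p under 0.05 in a limma fit of the 4 group means over all 10258 genes. On each array 38.4% to 41.3% of 45281 probes were above background at a detection p under 0.05, and arrays correlated at 0.979 to 0.997. Control replicate 3 stood apart on the second principal component, at -20.5 against -5.58 to 12.2 for the other arrays. Of 8 podocyte markers on the array 6 were detected, Nphs1 and Synpo among them, and Ptpro and Podn were not. Precision is limited by the 3 arrays per group: the median SE of a difference between 2 groups was 0.12 for Zfp genes and 0.101 for all genes.

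The first comparison asked what DZNep did to Zfp genes without high glucose. With DZNep, 48 Zfp genes rose and 25 fell against control, and 146 did not pass. Over all genes tested, 33.9% passed, 20.3% higher and 13.6% lower, while the Zfp shares were 21.9% higher and 11.4% lower. These shares lie near those of all genes. The median change was 0.09 for Zfp genes and 0.05 for all genes. In 85 of the 219 Zfp genes (38.8%) every DZNep array lay beyond every control array, against 44.6% of all genes. Without control replicate 3, 35 rose and 12 fell. With arrays centred on their medians in place of quantile normalization, 21 rose and 23 fell, so that the excess of higher over lower calls was lost there, as it was over all genes (969 higher and 1273 lower). Of the 175 members detected on all 12 arrays, 43 rose and 19 fell (24.6% and 10.9%). Of all genes detected on all 12 arrays, 22.2% rose and 14.6% fell. Changes were small: 3 of the 73 genes differed at least 2-fold, as did 158 of the 3473 that passed over all genes.

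Members that act on RNA or on ribosomes include the gene with the largest increase, Zfp385a. Zfp36 encodes tristetraprolin, which binds AU-rich elements in mRNAs and recruits the CCR4-NOT deadenylase. Its log2 signals were 9.84, 9.56 and 9.71 in DZNep cells and 9.55, 9.51 and 9.67 in high glucose plus DZNep, against 9.13, 9.02 and 9.13 in high glucose and 8.98, 9.03 and 8.75 in control. Every array with DZNep lay above every array without it. Zfp36 rose by 0.79 with DZNep (SE 0.094, adjusted p = 0.000162) and by 0.48 with DZNep in high glucose (SE 0.094, adjusted p = 0.00382). Zfp385a, an RNA-binding protein known as a p53 target, had 8.68, 8.55 and 8.34 in DZNep cells against 7.58, 7.62 and 7.02 in control. In high glucose it had 8.39, 8.18 and 8.39 with DZNep against 7.31, 7.51 and 7.62 without. The groups did not overlap in either pair, and Zfp385a showed the largest increase of all 219 members, 1.12 (SE 0.16, adjusted p = 0.000415), a fold of 2.17. Zfp598, the ubiquitin ligase that marks collided ribosomes, rose by 0.62 (adjusted p = 0.00211) and in high glucose by 0.48 (adjusted p = 0.0111).

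In the opposite direction, Zfp326, a part of the DBIRD complex that links RNA polymerase II to splicing, had 9.70, 9.80 and 9.87 in DZNep cells against 10.47, 10.30 and 10.44 in control. In high glucose it had 9.64, 9.81 and 9.76 with DZNep against 10.29, 10.21 and 10.25 without. It fell in both pairs, by 0.62 (SE 0.074, adjusted p = 0.000166) and by 0.51 (SE 0.074, adjusted p = 0.000652). Its 2 other detected probes, with p-values adjusted over all detected probes as for every second probe named here, fell too, at -0.55 and -0.57 with DZNep and at -0.50 and -0.51 in high glucose. These genes were counted in a wider list of 14 measured members that act on RNA, ribosomes or the spindle or as ubiquitin or SUMO ligases. Of the 14, 5 rose and 1 fell with DZNep (42.9% passed, against 33.9% of all genes). With DZNep in high glucose 4 rose and 1 fell (35.7%, against 24.2%). The other members that rose were Zfp346 (0.28, adjusted p = 0.0159), which binds double-stranded RNA, and Zfp706 (adjusted p = 0.0215). The Zfp346 call was lost without control replicate 2 (adjusted p = 0.0544) or DZNep replicate 2 (adjusted p = 0.0513), and its other detected probe fell, at -0.30. Zfp706 was detected on 1 DZNep array, 2 high glucose plus DZNep arrays and no other, so it met the detection rule only through groups where it is high. It was at least 1.03-fold higher with DZNep, a call lost without control replicate 2 (adjusted p = 0.0517) or control replicate 3 (adjusted p = 0.0635). Zfp451, a SUMO ligase, rose in high glucose (0.39, adjusted p = 0.039), and had 0.16 with DZNep alone (adjusted p = 0.323). The interaction did not pass (adjusted p = 0.54), and the call was lost on leaving out any of 5 arrays, 1 DZNep, 2 high glucose plus DZNep and 2 high glucose arrays (adjusted p from 0.0513 to 0.144). Zfp207, a spindle protein that binds Bub3, had changes of 0.05 (adjusted p = 0.822) and 0.39 (adjusted p = 0.066). Its other detected probes differed with DZNep, at -0.47 (adjusted p = 0.00686) and 0.09 (adjusted p = 0.737).

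Genes that tristetraprolin is known to act on or with were measured beside Zfp36. Of 9 measured mRNAs with AU-rich elements, 4 rose with DZNep and 0 fell (20.3% and 13.6% of all genes did). Fos, an immediate early transcription factor, had 9.55, 9.29 and 9.65 in DZNep cells against 8.07, 8.20 and 7.89 in control, a change of 1.44 (adjusted p = 1.87e-05). It was likewise higher in high glucose plus DZNep than in high glucose, by 1.25 (adjusted p = 5.17e-05). Dusp1, a phosphatase of MAP kinases, rose by 0.52, Ier3 by 0.35 and Plau, the urokinase gene, by 0.32 (adjusted p = 0.00211, 0.00417 and 0.00783). With DZNep in high glucose 2 rose, Fos and Ier3 (0.25, adjusted p = 0.0279), and Vegfa fell (-0.30, adjusted p = 0.048), where 12.4% of all genes rose and 11.9% fell. Of 15 measured genes of deadenylation and AU-rich element binding, 0 rose and 3 fell with DZNep (20% passed, against 33.9% of all genes): the CCR4-NOT scaffold Cnot1 (-0.96, adjusted p = 0.000623), its nuclease Cnot6l (-0.71, adjusted p = 0.000697) and the poly(A)-binding protein Pabpc1 (-0.71, adjusted p = 0.00437). The close relatives Zfp36l1 (0.12, adjusted p = 0.176) and Zfp36l2 (-0.07, adjusted p = 0.823) did not pass. Zfp36l2 averaged 5.19 with DZNep and 5.26 in control, below the lowest signal of a detected probe on every array (5.32 to 5.52). A change in it could therefore hardly be seen. With DZNep in high glucose 0 of the 15 rose and 3 fell (20% passed, against 24.2% of all genes). These were Pabpc1 (-0.72), Elavl1 (-0.35) and Khsrp (-0.34), with adjusted p = 0.00548, 0.012 and 0.0346. Cnot1 (-0.16, adjusted p = 0.476) and Cnot6l (-0.29, adjusted p = 0.0735) did not pass there.

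**Figure D1:**
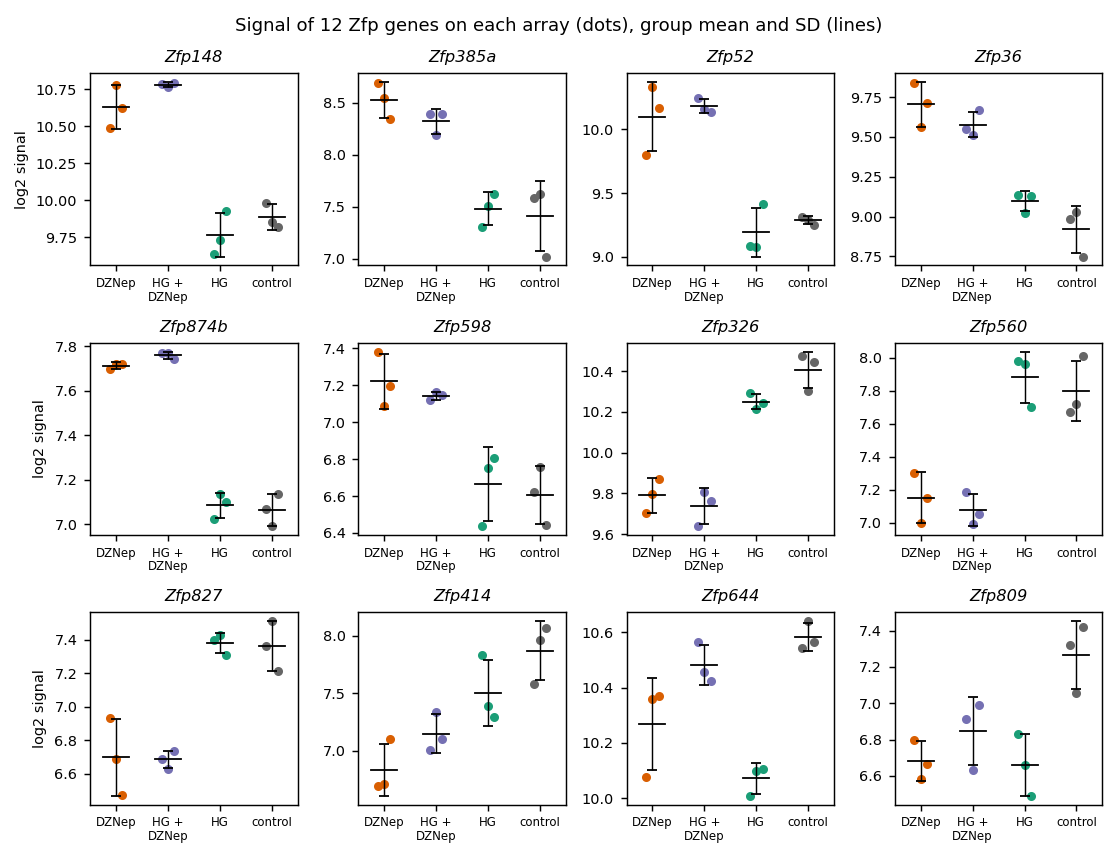
Log2 signal (vertical axis) of 12 Zfp genes on each of the 12 arrays (dots), by group from DZNep and HG plus DZNep to HG and control, where HG is high glucose; black lines are the group mean and SD (n = 3). In Zfp148, Zfp385a, Zfp52, Zfp36, Zfp874b and Zfp598 all 6 arrays with DZNep lie above the 6 without it, in Zfp326, Zfp560 and Zfp827 all 6 lie below, and in Zfp644 the high glucose arrays are the lowest group mean.

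Among members known to bind DNA and regulate transcription, 3 of 21 rose and 2 fell with DZNep, and 4 rose and 1 fell with DZNep in high glucose. The share that passed was 23.8% in each, against 33.9% and 24.2% of all genes. Zfp148 (ZBP-89), which binds GC-rich promoter elements, had 10.49, 10.78 and 10.62 in DZNep cells and 10.79, 10.76 and 10.80 in high glucose plus DZNep, against 9.64, 9.73 and 9.93 in high glucose and 9.99, 9.86 and 9.82 in control. Its arrays with DZNep all lay above those without. The changes were 0.74 (SE 0.093, adjusted p = 0.000213) and, in high glucose, 1.02 (SE 0.093, adjusted p = 3.78e-05) or 2.02-fold. The other Zfp148 probe changed by 0.44 (adjusted p = 0.0416) and 0.38 (adjusted p = 0.0926). Zfp335, known from complexes that methylate histone H3 lysine 4, rose by 0.51 (adjusted p = 0.0119), and Zfp592 by 0.38 (adjusted p = 0.00968). Neither passed with arrays centred on their medians.

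The members of this group that fell with DZNep were Zfp644 (-0.32, adjusted p = 0.0148), whose human counterpart is a partner of the histone H3 lysine 9 methyltransferase G9a, and Zfp91 (-0.25, adjusted p = 0.0302), a ubiquitin ligase. The Zfp91 call was lost without control replicate 1, control replicate 3 or DZNep replicate 3 (adjusted p = 0.0783, 0.0976 and 0.109). With arrays centred on their medians, neither Zfp644 (adjusted p = 0.0585) nor Zfp91 passed with DZNep. In high glucose, Zfp467, which favours fat over bone cell fate in the mouse, had 6.68, 6.28 and 6.72 with DZNep against 7.23, 7.41 and 7.37 without. These arrays did not overlap, and Zfp467 fell by 0.77 (SE 0.16, adjusted p = 0.00464), against -0.30 (adjusted p = 0.166) for DZNep alone. Zfp131 rose by 0.30 there (adjusted p = 0.0175), a call lost without high glucose plus DZNep replicate 1 (adjusted p = 0.0543) or high glucose replicate 1 (adjusted p = 0.0646). Zfp746, a repressor that the ubiquitin ligase parkin marks for degradation, rose by 0.22 (adjusted p = 0.0458), and leaving out any array of either group, or any DZNep array, ended that call (adjusted p up to 0.16 without high glucose plus DZNep replicate 3). Zfp281, a regulator of pluripotent stem cells, had 0.04 (adjusted p = 0.766) and, in high glucose, -0.13 (adjusted p = 0.352).

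Of 3 measured members listed for a role at retroelements or imprinted genes, 1 fell with DZNep (33.3% passed, against 33.9% of all genes). Zfp809 is known in the mouse to bring Trim28 to the primer binding site of murine leukaemia viruses and related endogenous elements. It had 6.80, 6.58 and 6.67 in DZNep cells against 7.32, 7.06 and 7.42 in control, and the groups did not overlap. It fell by 0.58 (SE 0.13, adjusted p = 0.00493). High glucose arrays had 6.83, 6.66 and 6.49 and high glucose plus DZNep arrays 6.91, 6.63 and 6.99, and neither high glucose against control (-0.60, adjusted p = 0.0753) nor DZNep in high glucose (0.18, adjusted p = 0.32) passed. Zfp445, which maintains imprinting marks, had 0.16 (adjusted p = 0.56), and Zfp30 had 0.10 (adjusted p = 0.467).

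Of 17 measured partners of KRAB zinc finger proteins, 4 rose and 2 fell with DZNep (35.3% passed, against 33.9% of all genes). With DZNep in high glucose 0 passed with limma, against 24.2% of all genes. There 2 had an unadjusted p under 0.05 (11.8%, against 36.8% of all genes). Without control replicate 3, 1 passed with DZNep, as did 25.9% of all genes. Trim28 itself had 12.91, 12.73 and 12.80 in DZNep cells against 12.56, 12.61 and 12.55 in control, a change of 0.24 (adjusted p = 0.0346), and 0.07 in high glucose (adjusted p = 0.576). Setdb1 had -0.12 (adjusted p = 0.262) and 0.00 (adjusted p = 0.994). Atf7ip, the cofactor that stabilises Setdb1, showed the largest change, 0.60 (adjusted p = 0.00086), followed by the heterochromatin protein Cbx5 (-0.43, adjusted p = 0.0237). Ehmt2, the gene of G9a, and the histone chaperone Daxx rose by 0.33 and 0.32 (adjusted p = 0.0399 and 0.014), and Cbx3, a relative of Cbx5, fell by 0.23 (adjusted p = 0.0443). Ezh2 fell by 0.89 with DZNep (adjusted p = 7.28e-05), and was -0.25 in high glucose (adjusted p = 0.0721).

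Many of the steepest changes belonged to Zfp genes with no role named here. Zfp874b had 7.70, 7.72 and 7.72 in DZNep cells and 7.77, 7.77 and 7.74 in high glucose plus DZNep, against 7.02, 7.14 and 7.10 in high glucose and 7.07, 6.99 and 7.14 in control. The 6 arrays with DZNep spanned less than the distance to the nearest array without it. Its changes of 0.65 and 0.67 had an SE of 0.061 and the smallest adjusted p of the 219 members in both pairs (3.56e-05 and 3.63e-05). Zfp52 had 9.80, 10.33 and 10.17 in DZNep cells against 9.31, 9.29 and 9.25 in control, and 10.24, 10.16 and 10.14 in high glucose plus DZNep against 9.08, 9.08 and 9.41 in high glucose. It rose by 0.81 (adjusted p = 0.000798) and 0.99 (adjusted p = 0.000333). Zfp775 rose by 1.07 (adjusted p = 0.00133) and, in high glucose, by 0.64 (adjusted p = 0.0255), a call lost without either of 2 high glucose plus DZNep arrays or 2 high glucose arrays (adjusted p from 0.0775 to 0.0879). Zfp296, Zfp365, Zfp93, Zfp513 and Zfp747 rose with DZNep by 0.76, 0.71, 0.68, 0.63 and 0.61. Each of these DZNep calls passed when any single array was left out. Zfp365 also rose in high glucose (0.45, adjusted p = 0.0192), a call lost without high glucose plus DZNep replicate 1 or 2 or high glucose replicate 3 (adjusted p from 0.0631 to 0.0661).

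The largest decrease with DZNep was that of Zfp414, which had 6.70, 6.71 and 7.10 in DZNep cells against 7.58, 7.96 and 8.07 in control, a fold of 0.488 (adjusted p = 0.00114). In high glucose the arrays of Zfp414 overlapped between 7.01, 7.34 and 7.10 with DZNep and 7.83, 7.39 and 7.30 without (change -0.36, adjusted p = 0.156). Its other detected probe had -0.35 (adjusted p = 0.0896) and, in high glucose, -0.51 (adjusted p = 0.0303). Zfp560 fell in both pairs. In high glucose it had 7.19, 6.99 and 7.06 with DZNep against 7.98, 7.96 and 7.70 without, a change of -0.80 (adjusted p = 0.000649), and with DZNep alone it changed by -0.65 (adjusted p = 0.00172). The other detected probe of Zfp560 did not show this (-0.07, adjusted p = 0.774, and 0.20, adjusted p = 0.396). Zfp827, whose human counterpart recruits the NuRD complex to telomeres, fell by 0.67 (adjusted p = 0.00111) and 0.69 (adjusted p = 0.00117). Zfp985, Zfp606, Zfp267, Zfp930, Zfp873, Zfp955a and Zfp157 also fell, with changes from -0.86 to -0.51. Of these, Zfp985 (adjusted p = 0.0549), Zfp606 (0.113), Zfp267 (0.0639), Zfp930 (0.0814) and Zfp955a (0.0506) did not pass without control replicate 3. Calls of Zfp985, Zfp606 and Zfp930 were also lost without DZNep replicate 1 (adjusted p = 0.0531, 0.12 and 0.0671), those of Zfp606 and Zfp930 without DZNep replicate 3 (adjusted p = 0.0641 and 0.0595), and that of Zfp606 without control replicate 1 (adjusted p = 0.0597).

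The second comparison asked what DZNep did in high glucose. Here 41 Zfp genes rose and 9 fell in high glucose plus DZNep against high glucose, and 169 did not pass. Over all genes 24.2% passed, 12.4% higher and 11.9% lower, so that higher and lower calls were about even (with the authors' values 1535 were higher and 943 lower), while among Zfp genes 18.7% were higher and 4.11% lower. The median change was 0.11 for Zfp genes and 0.01 for all genes, and 145 of 219 Zfp changes lay above 0, against 5246 of 10258 over all genes. In 88 Zfp genes (40.2%) the 2 groups had no overlap, against 44.4% of all genes. With arrays centred on their medians 27 rose and 8 fell, and with the authors' values 45 rose and 7 fell. Of the 175 members detected on all 12 arrays, 37 rose and 7 fell (21.1% and 4%), against 13.7% and 12.6% of all genes so detected. Without high glucose replicate 1, 27 rose and 8 fell (12.4% and 3.67%, against 8.75% and 8.97% of all genes). Whether the Zfp split differs from that of all genes was not tested.

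**Figure D2:**
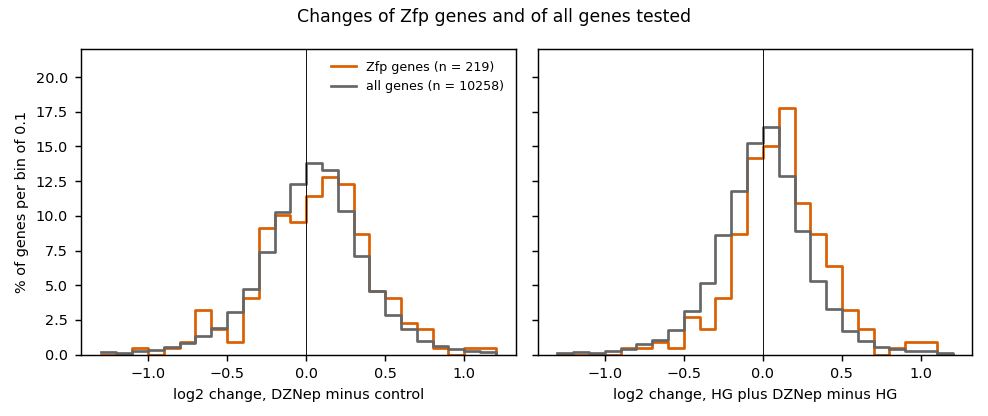
Share of genes (vertical axis, % per bin of 0.1) by log2 change (horizontal axis) for 219 Zfp genes and all 10258 genes, for DZNep minus control (left) and high glucose (HG) plus DZNep minus HG (right). On the left the 2 outlines nearly coincide, with medians of 0.09 and 0.05; on the right the Zfp outline lies to the right of that of all genes, with medians of 0.11 and 0.01.

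Zfp74 had 6.54, 5.81 and 5.70 in high glucose plus DZNep and was detected on all 3 of these arrays, against 5.01, 5.17 and 4.65 in high glucose, where it was detected on none. It was therefore at least 1.49-fold higher (adjusted p = 0.00315), while DZNep alone gave 0.08 (adjusted p = 0.79). Zfp354a, the KRAB repressor Kid-1 known from rat kidney, had 8.11, 8.05 and 7.79 in high glucose plus DZNep against 7.64, 7.13 and 7.29 in high glucose. These did not overlap, and the change was 0.63 (SE 0.14, adjusted p = 0.00624), and 1.18 at its other detected probe (adjusted p = 5.75e-05). With DZNep alone Zfp354a changed by 0.36 (adjusted p = 0.0621) and its other probe by 1.36 (adjusted p = 1.85e-05), so the probes differ in size and, for DZNep alone, in the call. Zfp35 rose by 0.90 (adjusted p = 0.00382) and Zfp974 by 0.67 (adjusted p = 0.0445). The Zfp974 call was lost without control replicate 3 or any array of the other groups (adjusted p from 0.0524 to 0.147). Zfp266 (-0.49, adjusted p = 0.000786) and Zfp276 (-0.42, adjusted p = 0.00184) fell in high glucose plus DZNep, and also with DZNep alone (-0.30 and -0.31). For Zfp276 this rests on the probe used: with DZNep alone another probe rose (0.23, adjusted p = 0.0194), and the mean of its detected probes changed by 0.0168 with DZNep alone and by -0.0889 in high glucose (adjusted p = 0.466). Zfp523 fell by 0.41 (adjusted p = 0.002). Zfp758 (adjusted p = 0.0226) and Zfp846 (adjusted p = 0.0432) also passed as lower, each detected on no high glucose plus DZNep array. Zfp846 was at least 1.24-fold lower. Zfp758 was detected on 2 high glucose arrays and 1 control array and met the detection rule only through them, and no fold is given for it. The Zfp758 call was lost without any high glucose plus DZNep array (adjusted p from 0.0543 to 0.0608). That of Zfp846 was lost without any high glucose plus DZNep, high glucose or control array (adjusted p from 0.05 to 0.141).

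Both DZNep comparisons share no arrays, though they share the normalization and the estimate of the spread. In 29 Zfp genes both passed in the same direction, 24 higher and 5 lower (13.2% of Zfp genes, against 15.8% of all genes). These are 39.7% of the Zfp genes that passed with DZNep and 58% of those that passed with DZNep in high glucose, against 46.6% and 65.0% over all genes. The sign agreed in 60.3% of Zfp genes and 71.8% of all genes. Across genes, which are not independent, the 2 changes correlated at 0.49 for Zfp genes and 0.66 for all genes. Beyond the members described above, Zfp777, Zfp334, Zfp688, Zfp672, Zfp628, Zfp692, Zfp39, Zfp428, Zfp579, Zfp954, Zfp597, Zfp623 and Zfp637 rose in both, with changes from 0.22 to 0.56. Zfp458, detected on no control and no high glucose array, also passed in both, and met the detection rule only through the groups where it is high. With arrays centred on their medians, 17 genes passed in the same direction in both.

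**Figure D3:**
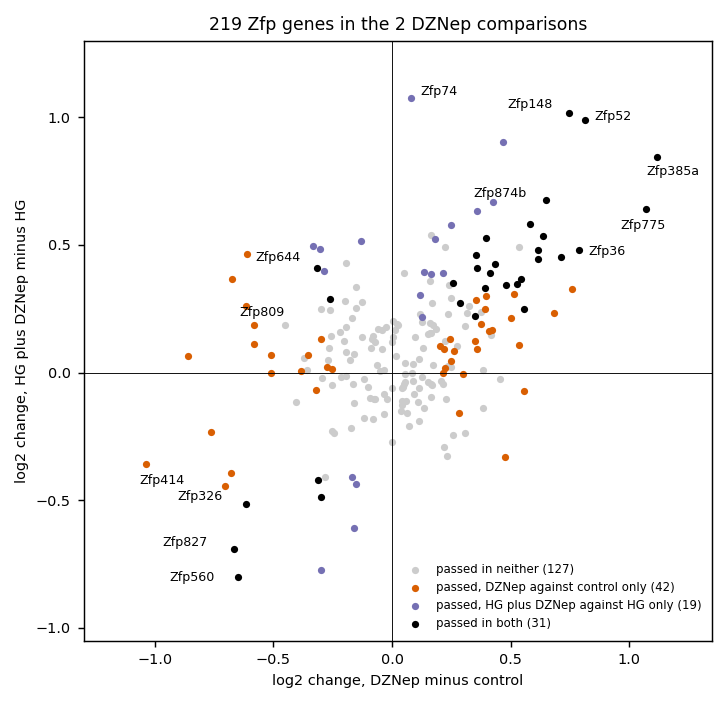
Each dot is 1 of 219 Zfp genes, by its log2 change in DZNep minus control (horizontal axis) and in high glucose (HG) plus DZNep minus HG (vertical axis), coloured by where it passed at an adjusted p under 0.05. Black dots, which passed in both, lie mostly at the upper right (24) and lower left (5), and 2, Zfp644 among them, lie at the upper left.

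**Figure D4:**
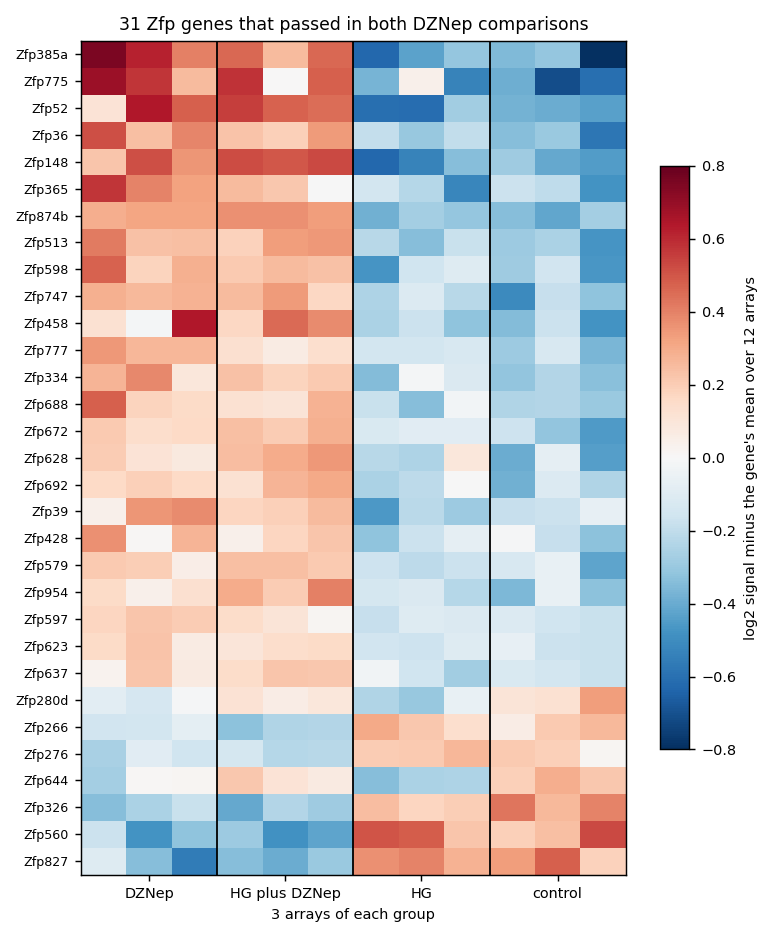
Log2 signal minus the mean of the gene over the 12 arrays (colour) for the 31 Zfp genes that passed in both DZNep comparisons (rows, by the size of the DZNep change) on the 3 arrays of each group (columns), where HG is high glucose. The 24 genes that rose are mostly above their mean with DZNep and below it without, the 5 that fell show the opposite, and Zfp280d and Zfp644 are lowest in high glucose alone.

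For the members that carry these shared changes, the 250 bases before the annotated transcription start are shown, since they are where general promoter motifs would lie. Zfp36, Zfp385a and Zfp874b rose and Zfp326 and Zfp560 fell in both comparisons. Sequences and coordinates are RefSeq's of assembly GRCm38.p6, each 5′ to 3′ on the strand of its gene, and 177 of the 219 members matched. Capitals mark matches, on either strand, to the GC box (GGGCGG), the CCAAT box (CCAAT), the TATA box (TATAAA), an ETS core (CCGGAAG), the NRF1 motif or the cyclic AMP response element (TGACGTCA).
Zfp36, chr7:28379229-28379478, minus strand: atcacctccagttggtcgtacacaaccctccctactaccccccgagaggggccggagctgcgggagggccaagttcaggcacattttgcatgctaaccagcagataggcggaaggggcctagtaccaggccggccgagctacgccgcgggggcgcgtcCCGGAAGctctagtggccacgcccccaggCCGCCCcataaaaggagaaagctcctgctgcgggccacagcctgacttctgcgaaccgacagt
Zfp385a, chr15:103340087-103340336, minus strand: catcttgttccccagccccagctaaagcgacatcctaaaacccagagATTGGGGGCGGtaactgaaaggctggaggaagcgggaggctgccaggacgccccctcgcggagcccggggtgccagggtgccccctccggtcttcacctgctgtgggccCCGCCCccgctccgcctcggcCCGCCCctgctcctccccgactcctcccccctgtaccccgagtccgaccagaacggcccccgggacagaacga
Zfp874b, chr13:67484254-67484503, minus strand: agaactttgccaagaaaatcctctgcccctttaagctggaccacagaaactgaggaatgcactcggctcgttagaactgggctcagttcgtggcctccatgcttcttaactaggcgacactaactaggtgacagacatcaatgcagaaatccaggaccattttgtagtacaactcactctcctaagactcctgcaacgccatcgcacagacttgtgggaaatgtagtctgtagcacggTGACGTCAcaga
Zfp326, chr5:105876318-105876567, plus strand: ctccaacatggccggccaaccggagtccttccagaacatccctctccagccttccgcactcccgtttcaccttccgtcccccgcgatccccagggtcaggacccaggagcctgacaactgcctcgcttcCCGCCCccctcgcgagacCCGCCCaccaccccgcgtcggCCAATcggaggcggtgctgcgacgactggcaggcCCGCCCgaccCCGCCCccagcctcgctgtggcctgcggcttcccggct
Zfp560, chr9:20385159-20385408, minus strand: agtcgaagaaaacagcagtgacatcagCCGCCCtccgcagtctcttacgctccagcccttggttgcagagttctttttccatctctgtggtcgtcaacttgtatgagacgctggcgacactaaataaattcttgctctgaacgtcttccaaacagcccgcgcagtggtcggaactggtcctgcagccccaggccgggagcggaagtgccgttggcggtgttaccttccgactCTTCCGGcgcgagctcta
The 5 windows differ in composition: Zfp326 holds 25 CpG pairs and 4 GC boxes and is 71.6% G or C, while Zfp874b holds 8 CpG pairs, no GC box and 1 cyclic AMP response element starting 12 bases before the start, and is 48.8% G or C. In Zfp385a a CCAAT box on the other strand is directly followed by a GC box, and no matches overlap in these windows. Over the 177 members with a sequence, 50.8% held a GC box, 44.6% a CCAAT box, 6.78% a TATA box, 15.8% an ETS core, 9.04% an NRF1 site and 3.39% a cyclic AMP response element. Over 8338 of all genes tested the shares were 60.2%, 36.6%, 6.79%, 14.2%, 8.49% and 2.7%, and the median number of CpG pairs was 13 for Zfp genes and 16 for all genes tested. Of the 23 members that rose in both and have a sequence, 47.8% held a GC box and 34.8% a CCAAT box. These matches are letters only and say nothing of binding.

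High glucose by itself changed 1 Zfp gene. Of the 219 members 0 rose and 1 fell in high glucose against control at an adjusted p under 0.05 with limma (0.283% of all genes passed), and 45 had an unadjusted p under 0.05 (20.5%, against 18.6% of all genes). Arrays did not overlap in 52 members (23.7%), against 21% of all genes. The gene was Zfp644, with 10.01, 10.10 and 10.11 in high glucose against 10.54, 10.64 and 10.56 in control, a change of -0.51 (SE 0.085, adjusted p = 0.0423). High glucose plus DZNep arrays had 10.56, 10.46 and 10.42 and DZNep arrays 10.08, 10.36 and 10.37. All 3 high glucose plus DZNep arrays thus lay above all high glucose arrays (change 0.41, adjusted p = 0.00523), whereas all DZNep arrays lay below all control arrays. The interaction of DZNep and high glucose, the difference between the 2 DZNep changes, was 0.73 (SE 0.12, adjusted p = 0.0709) and did not pass. The other detected probe of Zfp644 had -0.42 for high glucose (adjusted p = 0.264). The call for high glucose was lost on leaving out any of 9 arrays: control replicates 2 and 3, DZNep replicate 2, and each array of the high glucose plus DZNep and high glucose groups (adjusted p from 0.0573 to 0.131).

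Of the 219 members 0 passed for the interaction (0.0487% of all genes did) with limma, while 45 had an unadjusted p under 0.05 (20.5%, against 15.8% of all genes). After Zfp644 the smallest p-values belonged to Zfp715 (0.65, adjusted p = 0.097) and Zfp280d (0.55, adjusted p = 0.097). Zfp715 was 8.37 ± 0.033 in high glucose plus DZNep and 7.86 ± 0.078 in high glucose, and 8.13 ± 0.16 in DZNep and 8.26 ± 0.083 in control (mean ± SD, n = 3 each). Zfp280d fell with DZNep (-0.26, adjusted p = 0.0322) and rose with DZNep in high glucose (0.29, adjusted p = 0.0279). These Zfp280d calls were lost without 3 arrays (control replicate 3, adjusted p = 0.113, DZNep replicate 1, 0.0796, and DZNep replicate 2, 0.095) and 5 arrays (adjusted p from 0.0627 to 0.108, high glucose plus DZNep replicates 1 to 3 and high glucose replicates 1 and 2). In high glucose plus DZNep against DZNep 0 members passed with limma (0.0585% of all genes did), while 30 had an unadjusted p under 0.05 (13.7%, against 10.3% of all genes). The smallest p-values were those of Zfp3 (-0.34, adjusted p = 0.117), Zfp346 (-0.31, adjusted p = 0.209) and Zfp940 (0.49, adjusted p = 0.257), and their arrays did not overlap.

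High glucose plus DZNep against control, which shares arrays with the comparisons above, gave 45 Zfp genes higher and 18 lower. Over all genes 30.1% passed, 17.1% higher and 13% lower. The 6 largest increases were in Zfp775 (0.92), Zfp385a (0.92), Zfp148 (0.90), Zfp52 (0.89), Zfp35 (0.72) and Zfp874b (0.70). The 6 largest decreases were in Zfp985 (-0.86), Zfp267 (-0.78), Zfp414 (-0.72), Zfp560 (-0.72), Zfp827 (-0.68) and Zfp326 (-0.67). Of these 12 calls only that of Zfp985 was lost on leaving out an array (control replicate 3, adjusted p = 0.0567, or high glucose plus DZNep replicate 3, adjusted p = 0.0532). With the combined treatment Zfp35 was 8.48 ± 0.035, against 7.76 ± 0.056 in control (mean ± SD, n = 3 each).

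Because many Zfp genes lie side by side, their changes were also set out in gene order. In RefSeq's order of protein-coding genes, 11 runs of at least 4 consecutive Zfp genes held at least 3 members each, 51 members in all. Of these 51, 8 rose and 7 fell with DZNep (29.4% passed), against 40 and 18 of the 168 members outside the runs (34.5%). In high glucose 9 rose and 3 fell within the runs (23.5%), against 32 and 6 outside (22.6%). The runs with the most measured members are described, 2 of them tied at 6. Within a run some genes passed and others did not. In the run from Zfp84 to Zfp146, of 15 genes with 9 measured, Zfp382 fell with DZNep (-0.70, adjusted p = 0.0372), while Zfp27 (0.39, adjusted p = 0.00381), Zfp74 and Zfp82 (0.58, adjusted p = 0.00362) rose in high glucose. The other probe of Zfp27 rose as well (0.41, adjusted p = 0.0402) and that of Zfp82 had 0.12 (adjusted p = 0.40). With DZNep alone the other Zfp27 probe also passed (0.36, adjusted p = 0.0475), while the probe used did not (0.13, adjusted p = 0.203). In the run from Zfp455 to Zfp273, of 20 genes with 7 measured, Zfp874b rose in both comparisons and Zfp429 rose in high glucose (0.49, adjusted p = 0.0387). Zfp458, for which only bounds hold, was at least 1.14-fold and 1.2-fold higher with DZNep. Of the 6 measured genes from Zfp180 to Zfp94, Zfp235 (0.48) and Zfp93 rose with DZNep (adjusted p = 0.0323 and 0.000266), and of 6 from Zfp786 to Zfp746, Zfp282 (0.22), Zfp956 (0.54) and Zfp777 (0.56) rose (adjusted p = 0.032, 0.0484 and 0.000224). Neighbours in such runs can be near-identical copies, and how far their probes tell them apart was not tested.

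**Figure D5:**
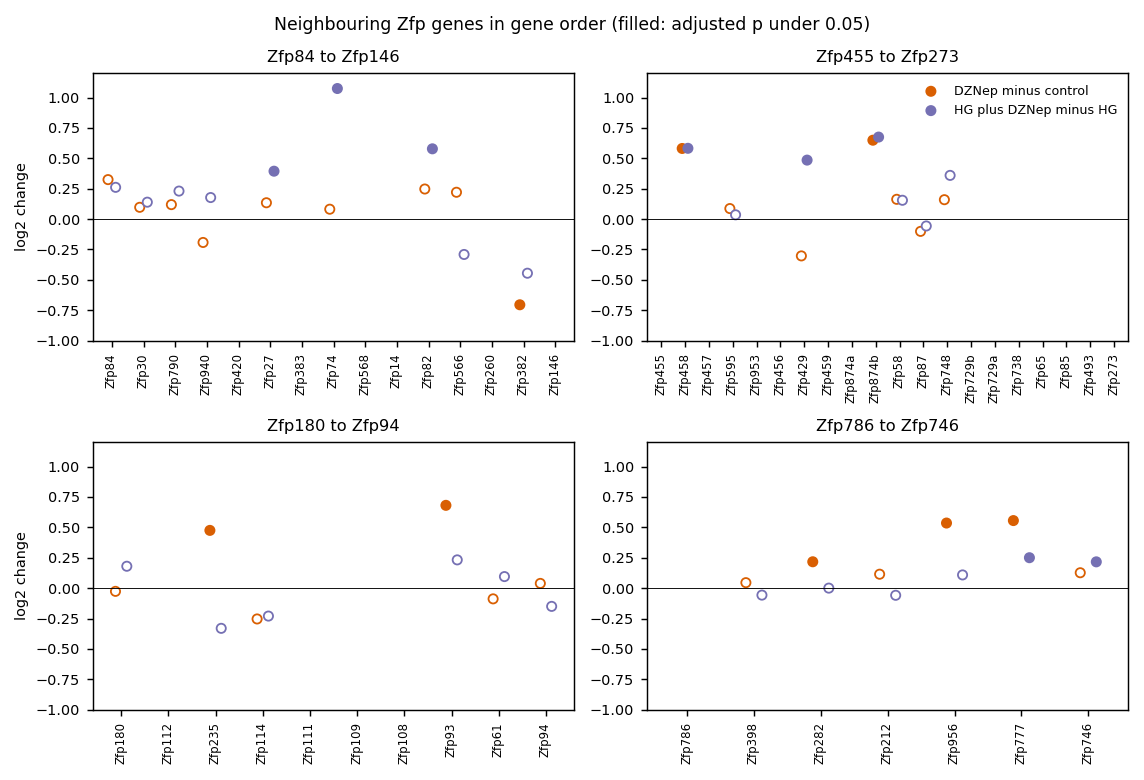
Log2 change (vertical axis) of the measured Zfp genes in 4 runs of neighbouring genes (horizontal axis, gene order, with unmeasured genes left empty), for DZNep minus control and high glucose (HG) plus DZNep minus HG; filled dots passed at an adjusted p under 0.05. Filled dots stand beside open ones in all 4 runs, and Zfp874b has both dots high, as does Zfp458, whose signals without DZNep were not above background.

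Other zinc finger families on the same arrays were counted for reference. Of 27 measured Zbtb genes, which pair zinc fingers with a BTB domain, 7 rose and 2 fell with DZNep (33.3% passed, against 33.9% of all genes), and 2 rose and 1 fell with DZNep in high glucose (11.1%, against 24.2%). Of 12 Zscan and Zkscan genes, 3 rose and 1 fell (33.3%), and in high glucose 1 rose and 0 fell (8.33%). Of 11 Klf genes, which have 3 zinc fingers at the end of the protein, 4 rose and 4 fell (72.7%), and in high glucose 2 rose and 2 fell (36.4%). Differences between the families were not tested.

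Markers of other cell types were read beside these calls, as sums of background-corrected signal over the detected markers. Pecam1, Cdh5 and Emcn, endothelial markers, were detected on no array, but the summed signal of the 4 detected endothelial markers was 219 to 263 on DZNep arrays against 122 to 189 on control arrays, and 189 to 241 in high glucose plus DZNep against 138 to 176 in high glucose. The 7 mesangial, smooth muscle and fibroblast markers summed to 60496 to 64002 with DZNep against 66617 to 68478 in control, and to 60246 to 63749 in high glucose plus DZNep against 62425 to 65273 in high glucose. Acta2, the smooth muscle actin, averaged 15.85 with DZNep against 15.99 in control on the log2 scale and did not pass (-0.13, adjusted p = 0.099). Gata3 (1.13, adjusted p = 0.000174) and Pdgfrb (0.69, adjusted p = 0.00127) rose with DZNep, and rose with DZNep in high glucose (0.91 and 0.41, adjusted p = 0.000811 and 0.0249). The 5 tubular markers detected summed to 12683 to 15451 with DZNep against 15627 to 16111 in control, and to 18111 to 19530 in high glucose plus DZNep against 20140 to 21188 in high glucose. Podocyte markers summed to 17938 to 19084 with DZNep against 15932 to 17702 in control, and to 16781 to 18783 in high glucose plus DZNep against 17607 to 17987 in high glucose. They did not move together: with DZNep Nphs1 rose (0.22, adjusted p = 0.0205) and Cd2ap fell (-0.39, adjusted p = 0.0321). Synpo, the brightest of the 6, did not pass (0.13, adjusted p = 0.307). With DZNep in high glucose 0 of the 6 rose and 1 fell. The 5 parietal markers summed to 2307 to 2362 with DZNep against 2507 to 2984 in control, and to 2591 to 2698 in high glucose plus DZNep against 2110 to 2694 in high glucose. Ptprc, Lyz2, Itgam and Tyrobp, leukocyte markers, were detected on no array. The 2 that were detected summed to 60.7 to 87.8 with DZNep against 42.1 to 49.2 in control, and to 36.3 to 48.8 in high glucose plus DZNep against 33.7 to 61.7 in high glucose. Laptm5, one of these, averaged 6.20 with DZNep against 4.99 in control on the log2 scale (adjusted p = 0.00193). All its control and high glucose signals lay below the lowest signal of a detected probe on their arrays. It thus met the detection rule only through arrays with DZNep, and its control mean is only a bound. Cd74, the other, averaged 5.15 with DZNep against 5.47 in control and did not pass (-0.32, adjusted p = 0.165). The part of these shifts in the Zfp calls was not tested, and fewer cells of a type and less RNA per cell cannot be told apart in bulk samples.

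At the edge of the rule, 7 Zfp genes were detected on exactly 3 arrays, and among them Zfp217, Zfp706, Zfp92 and Zfp182 had mean signals of 5.31, 5.30, 5.30 and 5.22. Just outside, Zfp580, Zfp384 and Zfp72 were detected on 2 arrays, with mean signals of 5.21, 5.19 and 5.12. The lowest signal of a detected probe was 5.32 to 5.52 per array, so members at this edge lie at background on most arrays.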

How the data were processed

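Expression arrays of mouse podocytes were used, 3 in each of 4 groups. The deposited table holds, per the file headers, 1 summarised signal intensity per probe and array, with its detection p-value, and GenomeStudio is named in the submitters' processing notes. Intensities were background-corrected and quantile-normalized with neqc of limma 3.58.1 (R 4.3.3, offset 16), which inferred the background from the detection p-values, and taken to log2. Kept were probes detected (p under 0.05) on 3 or more arrays, and the probe with the highest mean stood for its gene. Group means were fitted with lmFit and eBayes over 12 arrays, and p-values adjusted by Benjamini-Hochberg over 10258 genes in each of 6 comparisons. The test was checked on simulated data. A gene not detected on any array of a group has only a bound there, taken from the lowest signal of a detected probe per array.

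Members, gene lists and tests were chosen with earlier results of these data known. Named genes were the largest changes in each direction among those that passed with no overlap between groups (12 for DZNep against control, 8 for high glucose plus DZNep against high glucose, 6 for the others), the listed role genes, runs of neighbours and genes at the edge of the detection rule; the other genes named were chosen after their values were seen. The authors' own processed values, a linear rescaling of each array to 1 mean, served as an alternative, as did other normalizations, filters, probe rules, array weights, a replicate block and leaving out each array.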

Additional observations from a re-analysis of the deposited data

How the results depend on the processing

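Each count of Zfp genes past the threshold was recomputed under 21 alternatives. For DZNep against control 73 genes passed, 44 with arrays centred on their medians and 47 to 74 leaving out 1 array. Higher calls (48) were 21 with median centring and 35 to 49 leaving out 1 array, and lower calls (25) were 14 with array weights and 12 to 25. For high glucose plus DZNep against high glucose 50 passed, 35 to 53 leaving out 1 array. Higher calls (41) were 27 with median centring and 27 to 43, and lower calls (9) were 16 with array weights and 7 to 10. For high glucose against control, 1 gene passed, against 10 with quantile normalization alone, 7 with an offset of 50, 3 with array weights, 2 among genes detected on all 12 arrays, 0 with the authors' values, median centring, no filter, the mean of all detected probes or the replicate block, and 0 to 3 leaving out 1 array. High glucose plus DZNep against control gave 63, 39 with median centring and 46 to 68 leaving out 1 array. The interaction gave 0, against 5 with quantile normalization alone, 1 among genes detected on all 12 arrays, 1 with an offset of 50, 2 with array weights and 0 to 2 leaving out 1 array. High glucose plus DZNep against DZNep gave 0 throughout. Genes that passed in the same direction in both DZNep comparisons (29) were 17 with median centring and 23 to 30 leaving out 1 array. Silencing partners that passed with DZNep (6) were 2 with median centring, 3 without a filter, 3 with the replicate block, 2 with array weights and 1 to 6 leaving out 1 array. With the mean of all detected probes Zfp276 (0.0168) and Zfp346 (-0.0105) changed sign for DZNep against control. Same-numbered replicates were not paired: 2 of 18 correlations of their deviations exceeded 0.1 (-0.182 to 0.215), and with a replicate block 69, 47, 0, 0, 58 and 0 Zfp genes passed in DZNep against control, high glucose plus DZNep against high glucose, high glucose against control, high glucose plus DZNep against DZNep, high glucose plus DZNep against control and the interaction. Of 95 named calls 59 kept their direction and call in every alternative that gave them a value, which was 17 to 21 per call. The slide as a block was not run, since the headers used here give no slide. Causes of these shifts were not tested.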

Other observations

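Probes of the same Zfp gene did not always move together. Of the 73 Zfp genes that passed for DZNep against control, 23 had another detected probe: in 5 such genes another probe passed in the same direction, in 2 (Zfp276 and Zfp346) in the opposite direction, and in 16 none passed. For high glucose plus DZNep against high glucose 18 of 50 had another detected probe, and another probe passed in the same direction in 6 and in the opposite direction in 0.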
